A study of Homo sapiens with 6 samples.

Results

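The genes described here are the members of 6 solute carrier (SLC) families that carry amino acids and related small molecules across membranes. They were chosen by name, as every gene with a symbol in the SLC1, SLC6, SLC7, SLC36, SLC38 or SLC43 family. This gave 57 of the 22091 genes in the count files. The rule used no measured value, but it was set with earlier results of these data known. A count was found for 49 of the 57 in at least 1 library, 31 reached a mean of 1 CPM (the count scaled by library size), and 35 passed the filter on low counts and were tested. Some members are amino acid carriers in name more than in substrate: SLC6A8 carries creatine, SLC6A6 taurine, SLC6A12 betaine and GABA, SLC6A2, SLC6A3 and SLC6A4 monoamines, and SLC43A3 purine nucleobases.

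The RNA came from cultured hepatocellular carcinoma cells of 3 human lines, with no added ligand or with TGF-β1 at 2.5 ng/mL for 4 h. This gave 6 sequencing libraries, 1 for each line in each condition. MHCC97L and MHCC97H are sublines of the same tumour line selected for low and high metastatic capacity, and HCCLM3 descends from MHCC97H through passage as lung metastases in mice. All cells grew in DMEM with 10% fetal bovine serum, so both conditions had amino acids and serum in the medium. Library totals ran from 18485041 to 23242862 expected counts. Where no read was counted, up to 3 counts remain possible, or 0.129 to 0.162 CPM depending on the library. Separate cultures for the libraries are not stated in the labels. A p-value for TGF-β1 therefore measures how evenly the 3 lines responded, and a p-value between lines rests on 2 libraries per line.

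Amino acids cross membranes by carriers that exchange one for another, that use the sodium gradient, or that use a proton gradient, as on lysosomes. SLC7A5 and several other SLC7 proteins reach the membrane only when joined to a heavy chain, SLC3A2 or SLC3A1, and import large neutral or basic amino acids in exchange for others such as glutamine. SLC1A5 and the SLC38 carriers supply glutamine and small neutral amino acids. SLC7A11 exports glutamate for cystine, which feeds glutathione synthesis. Many of these genes are known targets of the transcription factor ATF4 when amino acids run short, and carriers on the lysosome, SLC38A9 and SLC36A1 among them, feed the sensing of amino acids by mTORC1. Tumour cells of the liver are known for high SLC7A5 and SLC1A5.

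Checks of the libraries can be given briefly. Of the genes used to check the ligand, PMEPA1 rose by 3.30 (log2), CCN1 by 1.88, SMAD7 by 1.19 and SKIL by 0.63, each in all 3 lines. Hepatocyte markers summed to 239 to 426 CPM in MHCC97L and MHCC97H and to 101 to 178 CPM in HCCLM3, and albumin (ALB) itself lay between 1.26 and 22.9 CPM. Among 8 hepatocyte markers, HNF4A and SERPINA1 rose after TGF-β1 and APOB fell. Markers of stellate cells and fibroblasts summed to 10.8 to 34.4 CPM, with ACTA2 at 0.131 CPM or less and DES at 0.0445 CPM or less. Most of that sum was LUM, at 9.27 to 17.7 CPM, and COL3A1, which was at 14.4 and 11.7 CPM in HCCLM3 and at 0.381 CPM or less in the MHCC97 lines. Endothelial markers summed to 9.74 to 41.1 CPM, and of these PECAM1 fell, while CDH5 and TIE1 stayed at 0.348 CPM or less. Leukocyte markers summed to 113 to 251 CPM, of which CD68 made up 109 to 247, and PTPRC was at 0.131 CPM or less. The part of these shifts in the results below was not tested.

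The promoters of 3 members are shown to let the letters near their starts be compared: SLC7A5 and SLC38A5 rose after TGF-β1 and SLC36A1 fell. The sequences are the 250 bases before the RefSeq transcription start in GRCh38.p14, 5′ to 3′ along the gene's strand, with matches to the motifs in capitals. SLC7A5 lies at chr16:87869508-87869757 (minus strand), SLC38A5 at chrX:48470261-48470510 (minus strand) and SLC36A1 at chr5:151436796-151437045 (plus strand, the first of 2 RefSeq starts).
SLC7A5: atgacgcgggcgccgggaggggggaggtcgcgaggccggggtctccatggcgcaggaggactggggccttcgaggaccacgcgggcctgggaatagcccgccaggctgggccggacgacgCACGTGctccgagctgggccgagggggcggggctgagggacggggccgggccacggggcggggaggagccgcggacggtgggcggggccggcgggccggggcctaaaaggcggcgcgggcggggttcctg
SLC38A5: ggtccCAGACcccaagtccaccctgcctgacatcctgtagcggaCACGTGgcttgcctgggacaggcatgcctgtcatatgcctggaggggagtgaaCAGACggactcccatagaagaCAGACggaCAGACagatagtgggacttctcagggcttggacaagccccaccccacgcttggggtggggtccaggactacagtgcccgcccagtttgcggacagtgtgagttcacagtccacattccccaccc
SLC36A1: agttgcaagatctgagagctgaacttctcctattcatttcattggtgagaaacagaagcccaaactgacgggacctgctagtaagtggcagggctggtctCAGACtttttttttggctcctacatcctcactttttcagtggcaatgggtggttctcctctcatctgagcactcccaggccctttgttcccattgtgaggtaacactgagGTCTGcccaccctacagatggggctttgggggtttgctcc

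Both strands were searched for 5 motifs: the SMAD element CAGAC, which reads as GTCTG on the opposite strand, the E-box CACGTG, the AP-1 element TGANTCA, the C/EBP-ATF element TGATGNAA that ATF4 binds, and the NRF2 element TGACNNNGC. The SLC7A5 window, with 79.6% G and C against a median of 58% over all promoters, held 1 E-box at position -130 from the start and no other match. The SLC38A5 window held CAGAC at -245, -153, -132 and -124 and an E-box at -206. The SLC36A1 window held CAGAC at -150 and, on the other strand, at -40, while the window of its other RefSeq start, not printed, held 2 matches to the E-box and none to CAGAC. No match overlapped another in the printed windows. The window of SLC6A8, which also rose, held none of the 5 motifs. A promoter was found for 43 of the 57 symbols, with 63 starts in all, and none is shown for the others. CAGAC was in 47.6% of the members' windows and 38% of all 35116 windows, the E-box in 14.3% and 6.34%, TGANTCA in 14.3% and 6.57%, TGACNNNGC in 7.94% and 10.9%, and TGATGNAA in 3.17% and 3.14%. A match is a match of letters and no evidence of binding.

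Transporter RNA was concentrated in a few genes. The 57 members together held 2840 to 3350 CPM per library, and the 5 with the highest CPM made up 70.5% of that. Between genes, levels were compared as mean CPM per kb of exon length over the 6 libraries (± SD, n = 6), taking the union of annotated exons as the length. SLC1A5 stood at 147 ± 11.1 CPM per kb, SLC7A5 at 128 ± 18.8 and SLC6A8 at 98.6 ± 14.2. The next group was several times lower and its members overlapped within their spread: SLC38A1 at 27.9 ± 4.63, SLC38A10 at 25.4 ± 4.1, SLC7A11 at 24.8 ± 2.59, SLC38A2 at 21.7 ± 5.8 and SLC6A6 at 18.9 ± 8.72. SLC38A5 at 9.52 ± 9.22 and SLC7A1 at 7.71 ± 0.614 completed the first 10. In this order the SDs of neighbours overlapped at every step but the one from SLC6A8 to SLC38A1.

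**Figure D1:**
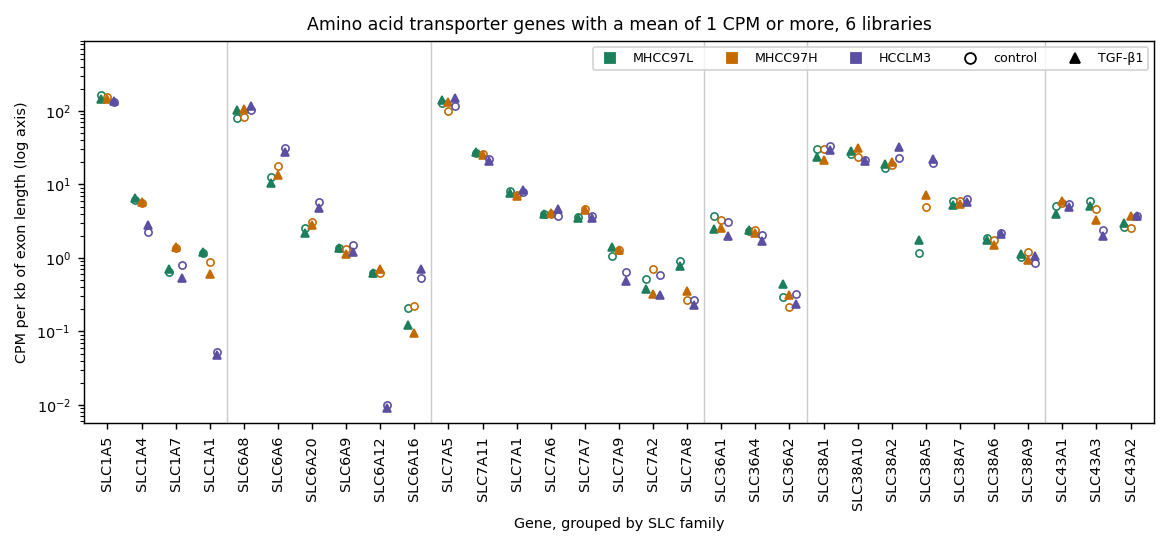
Level of the 31 transporter genes with a mean of 1 CPM or more, in CPM per kb of exon length on a log axis, grouped by SLC family. Each point is 1 of 6 libraries, coloured by cell line, with open circles for control and filled triangles for TGF-β1. SLC1A5, SLC7A5 and SLC6A8 stand above every other gene, and SLC38A5, SLC1A1 and SLC6A12 spread widely between lines.

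The glutamine and neutral amino acid exchangers of the SLC1 family were led by SLC1A5. Its level was 544 CPM in MHCC97L, 518 in MHCC97H and 445 in HCCLM3 without ligand, and 484, 484 and 458 CPM with TGF-β1. The level fell a little in both MHCC97 lines and not in HCCLM3, and the change over the lines was -0.08 (log2, SE 0.068; adjusted p = 0.494, edgeR quasi-likelihood test with Benjamini-Hochberg adjustment). Exons of SLC1A5 overlap those of AC008622.2 on the opposite strand. SLC1A4, which carries alanine, serine and cysteine, stood at 15.8 to 45.2 CPM. The glutamate carriers SLC1A7 (2.91 to 7.69 CPM) and SLC1A1 (0.194 to 4.85 CPM) were low, and SLC1A2 was at 0.301 to 1.49 CPM. SLC1A3 had a rounded count of 0 in all libraries and SLC1A6 did not pass 0.043 CPM.

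In the SLC7 family, SLC7A11 differed little with the ligand and was lowest in HCCLM3. It stood at 258 CPM in MHCC97L, 252 in MHCC97H and 215 in HCCLM3 without ligand, and at 265, 241 and 202 CPM with it. The groups overlapped, and the change was -0.04 (SE 0.064; adjusted p = 0.724 in the same edgeR fit). Exons of SLC7A11 share 865 bases with an antisense gene, SLC7A11-AS1, and it is not known here whether the authors counted by strand. SLC7A1, the main importer of arginine and lysine, stood at 63.2, 55.2 and 60.3 CPM without ligand and at 58.7, 53 and 65.5 CPM with it, in the order MHCC97L, MHCC97H and HCCLM3. Its change was -0.11 in MHCC97L (95% counting interval -0.22 to 0.00) and 0.12 in HCCLM3 (0.01 to 0.24), and -0.02 over the lines (SE 0.075). The exchangers of basic and neutral amino acids SLC7A6 (28.1 to 34.7 CPM) and SLC7A7 (17.8 to 24.1 CPM) came next. The exons of SLC7A6 share 4216 bases with genes on the opposite strand. The cystine carrier SLC7A9 stood at 1.26 to 3.65 CPM, SLC7A2 at 2.47 to 5.67 CPM and SLC7A8 at 1.36 to 5.4 CPM.

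The SLC38 family holds the sodium-coupled importers of small neutral amino acids. SLC38A10, the member with the second highest level per kb of this family, stood at 199 CPM in MHCC97L, 184 in MHCC97H and 166 in HCCLM3 without ligand, and at 218, 244 and 162 CPM with it. It was higher with ligand in both MHCC97 lines and level in HCCLM3, and its exons share 610 bases with AC027601.4 on the other strand. SLC38A7 of the lysosome, which releases glutamine, was at 36.2 to 43.8 CPM, SLC38A6 at 7.74 to 11.1 CPM, and SLC38A9, the arginine-dependent activator of mTORC1, at 7.44 to 10.5 CPM. Of the proton-coupled SLC36 carriers, SLC36A4 was at 16.6 to 23.4 CPM and SLC36A2 at 0.906 to 1.87 CPM. The branched-chain amino acid carriers SLC43A1 (13.9 to 20.8 CPM) and SLC43A2 (27.3 to 39.4 CPM) stood beside SLC43A3 (9.01 to 27 CPM). In the SLC6 family, the proline carrier SLC6A20 stood at 14.4 to 38.3 CPM and the glycine carrier SLC6A9 at 5.76 to 7.7 CPM, while the orphan carrier SLC6A16 was at 0.344 to 2.57 CPM. Of the 57 members, 26 had a mean under 1 CPM. Among them 18 had a count somewhere, and 8 had a rounded count of 0 in every library: SLC1A3, SLC38A3, SLC38A8, SLC6A5, SLC6A7, SLC6A17, SLC7A3 and SLC7A13.

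The first comparison asks what TGF-β1 did to transporter RNA after 4 h. The 3 carriers that rose, each in all 3 lines, were SLC7A5 for large neutral amino acids, SLC6A8 for creatine and SLC38A5 for glutamine and histidine. The 4 that fell, each in all 3 lines, were SLC36A1 of the lysosome, SLC7A2 for arginine, SLC38A1 for glutamine and SLC6A6 for taurine. These 7 were 20% of the 35 members tested, where 14.4% of all 14176 genes tested passed the same threshold (adjusted p under 0.05, edgeR quasi-likelihood test with Benjamini-Hochberg adjustment, cell line and treatment as terms). For the directions, 8.57% of members rose against 7.79% of all genes, and 11.4% fell against 6.65%. The share of members is near the background and is no result about the set. In RNA of whole cultures, fewer cells with a transcript and less of it per cell cannot be told apart. The median change was -0.08 over the 35 members and -0.00 over all genes tested. With library totals in place of TMM scaling the same test gave 1 member that rose and 5 that fell.

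None of the 7 changes reached 2-fold over the lines. The same direction in all 3 lines was seen in 19 of 35 members (54.3%) and in 50.4% of all genes. Levels of the 3 control and 3 TGF-β1 libraries did not overlap in 6 of 35 members (17.1%), against 18% of all genes. Those 6 were SLC7A5, SLC38A1, SLC36A1, SLC7A2, SLC38A7 and SLC7A14. Of these, SLC38A7 (-0.16, adjusted p = 0.164) and SLC7A14 (-0.36, adjusted p = 0.442) were not called by edgeR. SLC7A14 was low, at 0.667 to 1.12 CPM.

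**Figure D2:**
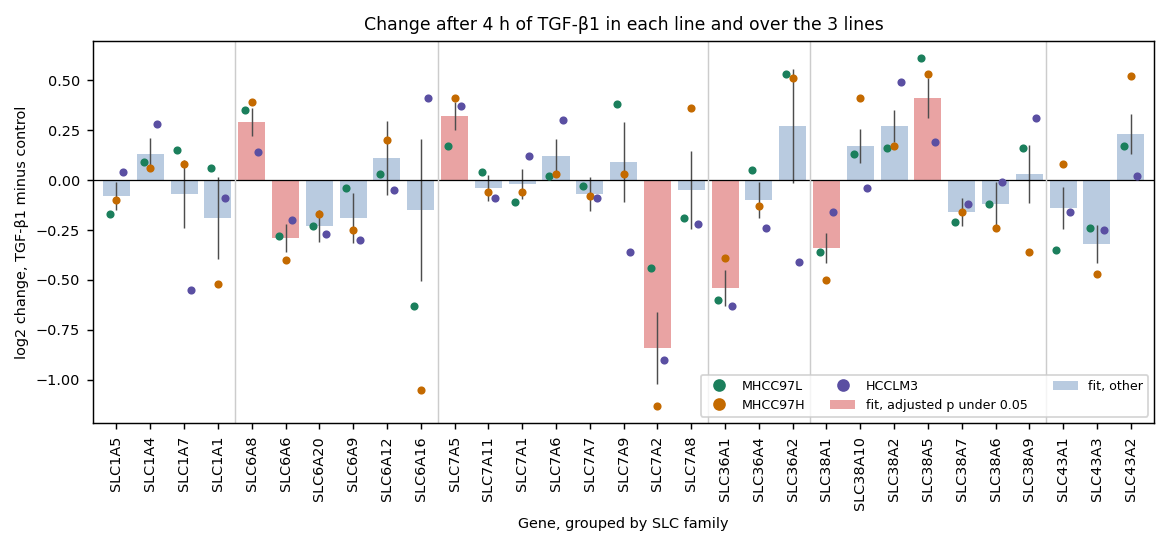
Log2 change of each transporter gene with a mean of 1 CPM or more, TGF-β1 minus control. Dots are the 3 lines (1 library per condition), bars are the fit over the lines and grey lines its standard error, with red bars for adjusted p under 0.05. The bars run from -0.84 (SLC7A2) to 0.41 (SLC38A5), and 7 are red.

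SLC7A5 and its heavy chain rose together. SLC7A5 stood at 603 CPM in MHCC97L, 466 in MHCC97H and 553 in HCCLM3 without ligand, and at 677, 620 and 716 CPM with it. Every TGF-β1 library lay above every control library. The log2 change was 0.32 (SE 0.071, n = 3 lines; adjusted p = 0.0211, edgeR quasi-likelihood test), with 0.17 in MHCC97L, 0.41 in MHCC97H and 0.37 in HCCLM3. SLC3A2, which is no member of the 6 families and was named as the partner that SLC7A5 needs, went from 383, 344 and 399 CPM to 473, 495 and 439 CPM in the same order. Its change was 0.32 (SE 0.081; adjusted p = 0.032 by edgeR), and its groups did not overlap either. SLC3A1, the heavy chain of SLC7A9, stood at 4.65 to 14.1 CPM with a change of -0.19 (SE 0.113; adjusted p = 0.294 by edgeR). SLC7A5 lies at chr16:87830023-87869488 and shares 271 exonic bases with AC126696.2 on the other strand.

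SLC6A8 brings creatine into the cell. It stood at 444 CPM in MHCC97L, 448 in MHCC97H and 574 in HCCLM3 without ligand, and at 566, 587 and 634 CPM with it. Each line rose, but the control of HCCLM3 lay above the TGF-β1 library of MHCC97L, so the groups overlapped. The change was 0.29 (SE 0.071; adjusted p = 0.0275, edgeR quasi-likelihood test), and with library totals it was 0.24 (adjusted p = 0.0642). The gene lies at chrX:153688099-153696593, and its exons share 22 bases with PNCK.

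SLC38A5 varied more between the lines than with the ligand. It stood at 4.61 CPM in MHCC97L, 19.9 in MHCC97H and 79 in HCCLM3 without ligand, and at 7.11, 28.8 and 89.8 CPM with it. The lines do not overlap, and within each the TGF-β1 library was the higher. The change was 0.61 in MHCC97L (95% counting interval 0.26 to 0.99), 0.53 in MHCC97H (0.35 to 0.71) and 0.19 in HCCLM3 (0.09 to 0.28). Over the lines it was 0.41 (SE 0.101; adjusted p = 0.03, edgeR quasi-likelihood test), while library totals gave 0.35 (adjusted p = 0.0544) and limma-voom 0.36 (adjusted p = 0.0582). The gene lies at chrX:48458537-48470256.

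Of the carriers that fell, SLC36A1 had the smallest p. This gene encodes a proton-coupled carrier of proline, glycine and alanine on lysosomes. It stood at 26.3 CPM in MHCC97L, 23.2 in MHCC97H and 21.5 in HCCLM3 without ligand, and at 17.3, 17.6 and 13.9 CPM with it. All 3 TGF-β1 libraries lay below all controls. The change was -0.54 (SE 0.091; adjusted p = 0.00676, edgeR quasi-likelihood test), with -0.60, -0.39 and -0.63 in the 3 lines. The gene lies at chr5:151437046-151492381. Its deposited counts have decimals, as do those of SLC38A1, SLC6A6, SLC6A8 and SLC38A5 among the genes that changed, and the reason was not tested.

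SLC38A1 and SLC38A2 are close relatives that import glutamine and alanine, and they lie close together on chromosome 12. SLC38A1 stood at 300 CPM in MHCC97L, 301 in MHCC97H and 333 in HCCLM3 without ligand, and at 233, 212 and 298 CPM with it. The groups were apart only by a narrow margin, because HCCLM3 with ligand stayed close to the MHCC97 controls. Its change was -0.34 (SE 0.077; adjusted p = 0.0218, edgeR quasi-likelihood test). SLC38A2 went from 111, 120 and 153 CPM to 124, 135 and 216 CPM in the same order. It was higher with TGF-β1 in each line, most in HCCLM3 (0.49, counting interval 0.42 to 0.56). Over the lines its change was 0.27 (SE 0.081), which missed the threshold in edgeR (adjusted p = 0.056) and passed it in DESeq2 (adjusted p = 0.044).

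SLC6A6 carries taurine and β-alanine. It stood at 103 CPM in MHCC97L, 148 in MHCC97H and 261 in HCCLM3 without ligand, and at 85.3, 112 and 228 CPM with it. The TGF-β1 library was the lower in every line, although the groups overlapped because the lines differ. Its exons share 239 bases with GRIP2 on the other strand. The change was -0.29 (SE 0.068; adjusted p = 0.0247, edgeR quasi-likelihood test). SLC7A2, an arginine and lysine carrier of liver, was the least abundant of the 7. It stood at 4.14 CPM in MHCC97L, 5.67 in MHCC97H and 4.68 in HCCLM3 without ligand, and at 3.02, 2.54 and 2.47 CPM with it. No TGF-β1 library reached a control. The change was -0.84 (SE 0.182; adjusted p = 0.0186, edgeR quasi-likelihood test) and the call was lost with DESeq2 (adjusted p = 0.0831). Its interval in MHCC97L ran from -0.92 to 0.01, and in MHCC97H from -1.64 to -0.70.

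**Figure D3:**
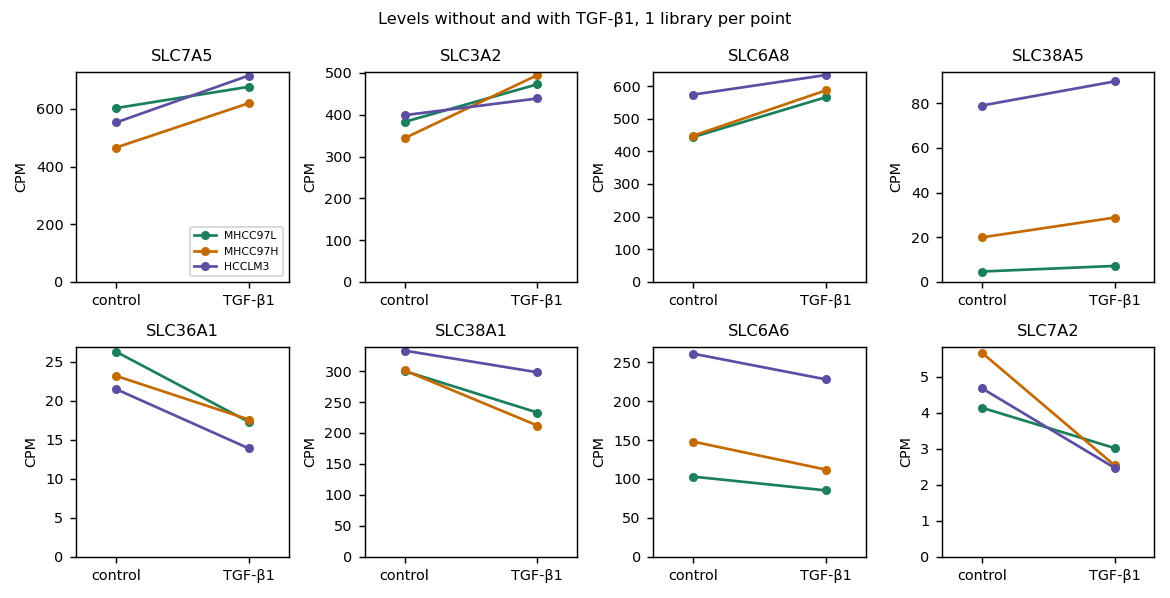
CPM of the 7 transporter genes that passed adjusted p under 0.05 after TGF-β1, and of the heavy chain SLC3A2, without and with the ligand. Each point is 1 library and each line joins the libraries of a cell line; axes start at 0. The top row shows genes that rose and the bottom row genes that fell, in each of the 3 lines.

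Most of these calls were lost when MHCC97L or MHCC97H was left out, and none when HCCLM3 was. The share of all genes called moved in the same way, so this does not show which lines carried the changes. Without MHCC97L, MHCC97H and HCCLM3 in turn, SLC7A5 changed by 0.39, 0.27 and 0.28 and SLC36A1 by -0.51, -0.62 and -0.50. Without MHCC97L, SLC7A2 was the 1 member called (-1.04, adjusted p = 0.0226, edgeR), where 4.29% of all genes tested were called. The other adjusted p-values were then 0.114 for SLC7A5, 0.329 for SLC6A8, 0.213 for SLC38A5, 0.0845 for SLC36A1, 0.22 for SLC38A1, 0.248 for SLC6A6 and, for the heavy chain, 0.234. Without MHCC97H, SLC36A1 was the 1 member called (-0.62, adjusted p = 0.00772, edgeR), against 6.86% of all genes. SLC7A5 was then at 0.103, SLC6A8 at 0.123, SLC38A5 at 0.128, SLC38A1 at 0.108, SLC6A6 at 0.123, SLC7A2 at 0.105 and SLC3A2 at 0.152. Without HCCLM3, 10 members were called, these 7 among them, against 27.7% of all genes. In a fit that ignored the pairing of libraries by line no member was called, and 0.0705% of all genes were. Over the 13 alternatives the adjusted p ran from 0.00227 to 0.235 for SLC36A1, from 0.00102 to 0.395 for SLC7A5, from 0.00069 to 0.461 for SLC6A8, from 0.00302 to 0.969 for SLC38A5, from 0.000272 to 0.442 for SLC38A1, from 0.0023 to 0.901 for SLC6A6, from 0.0131 to 0.226 for SLC7A2 and from 0.00066 to 0.275 for SLC3A2. Each of the 8 kept its direction in all of them.

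Among members that did not pass, SLC43A3 had a change of -0.32 (adjusted p = 0.0543, edgeR quasi-likelihood test) and passed with upper quartile scaling (adjusted p = 0.0387) and with library totals (adjusted p = 0.0321). Its exons share 1349 bases with AP000781.2 on the same strand. SLC6A20 had a change of -0.23 (adjusted p = 0.0986 by edgeR), SLC43A2 of 0.23 (adjusted p = 0.16 by edgeR) and SLC38A10 of 0.17 (adjusted p = 0.234 by edgeR). By family, the SLC7 genes summed to 903 ± 75.1 CPM without ligand and 1027 ± 44.3 CPM with it (SD, n = 3 lines), higher with TGF-β1 in each line. The SLC36 genes summed to 46.7 ± 3.72 and 38.1 ± 5.75 CPM, lower in each line. The SLC38 sum was 720 ± 65.4 and 713 ± 99.8 CPM, and held SLC38A1 (change -0.34) beside SLC38A2 (0.27). The sums follow their most abundant members and were not tested.

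Within a single line there is no replicate, and a change of 1.5-fold in a gene with 1 CPM or more was only counted. In MHCC97L this held for 3 of 31 members, SLC38A5 higher and SLC36A1 and SLC7A14 (counting interval -1.74 to 0.27) lower, against 9.44% of all genes. In MHCC97H it held for 2 of 32, SLC7A2 and SLC38A11, both lower, against 12.7%. In HCCLM3 it held for 2 of 32, SLC36A1 and SLC7A2, both lower, against 9.65%. Whether HCCLM3 responded differently from the MHCC97 pair was tested as an interaction with 1 residual degree of freedom. No member was called by edgeR's quasi-likelihood test, DESeq2 or limma-voom, and 1.59% of all genes were called by edgeR. An unadjusted p under 0.05 was found for 6 of 35 members (17.1%) and 14.2% of all genes. The difference was 0.33 for SLC38A2 (adjusted p = 0.182), -0.37 for SLC38A5 (adjusted p = 0.251), -0.31 for SLC38A10 (adjusted p = 0.254) and 0.27 for SLC38A1 (adjusted p = 0.26), all from edgeR.

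Genes that act with these transporters moved in both directions. Of 19 tested genes of the ATF4 and amino acid response, 5 rose and 2 fell, with a median change of 0.09 against -0.00 over all genes. DDIT4, an inhibitor of mTORC1, rose by 0.77, and SESN2, a leucine sensor, rose by 0.49, while STC2, a secreted glycoprotein, fell by 0.70 and GDF15, a stress cytokine, fell by 0.54. ATF4 itself had a change of 0.15 (adjusted p = 0.161, edgeR quasi-likelihood test), and ASNS of -0.07 (adjusted p = 0.603 by edgeR). None of 11 genes of serine and one-carbon synthesis passed the edgeR threshold. Among genes of glutamine and glutamate use, GFPT2, of hexosamine synthesis, rose by 0.61, while PPAT, of purine synthesis, fell by 0.47 and GFPT1 fell by 0.26.

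Of 14 glutathione and NRF2 genes, HMOX1 rose by 0.70, while GCLC, the catalytic subunit of the enzyme that joins glutamate to the cysteine supplied through SLC7A11, fell by 0.61 and TXNRD1 fell by 0.26. Of 21 genes of amino acid sensing by mTORC1, SESN2 rose and MTOR fell by 0.31. Of 19 cytosolic tRNA synthetases CARS1 rose by 0.46, and of 13 other amino acid carriers SLC25A13, the mitochondrial aspartate and glutamate exchanger, fell by 0.27. None of 8 regulators of transporter trafficking passed (median -0.23). The genes said to rise or fall on these lists passed adjusted p under 0.05 in edgeR's quasi-likelihood test over all genes, as did 14.4% of all genes tested.

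The second question is how the lines differ in their transporters. MHCC97L and MHCC97H differed in 4 of 35 members and HCCLM3 differed from each in 15 of 35, with SLC38A5, SLC6A6, SLC6A20 and SLC38A2 among those higher, and SLC6A12, SLC1A1, SLC1A4 and SLC43A3 among those lower, in HCCLM3 than in both. The share of members called was 11.4% for MHCC97H against MHCC97L, where 2.45% of all genes were called, and 42.9% for HCCLM3 against MHCC97L and against MHCC97H, where 29.8% and 27.2% of all genes were called. In both comparisons with HCCLM3, 7 members were higher and 8 lower, which is 20% and 22.9% of members. Of all genes, 15% were higher and 14.8% lower than in MHCC97L, and 13.3% and 13.9% than in MHCC97H. In MHCC97H, 3 members were higher and 1 lower than in MHCC97L, where 1.37% and 1.09% of all genes were. Levels are the mean of 2 libraries of a line, 1 per condition, and p-values are from edgeR's quasi-likelihood test with treatment as a term. With treatment left out of the fit, no member was called between MHCC97L and MHCC97H and 9 were between HCCLM3 and MHCC97H. Of all genes, 0.0141% and 10.2% were then called. With either its control or its TGF-β1 library left out, MHCC97L had 1 library left. Fewer calls were made in each of these fits in both comparisons with MHCC97L, for members and for all genes. The comparisons with HCCLM3 share its libraries, so they are set side by side and not taken as separate evidence. Hepatocyte markers were lower and COL3A1 higher in HCCLM3 as well, by the values given above, and their part in these differences was not tested.

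**Figure D4:**
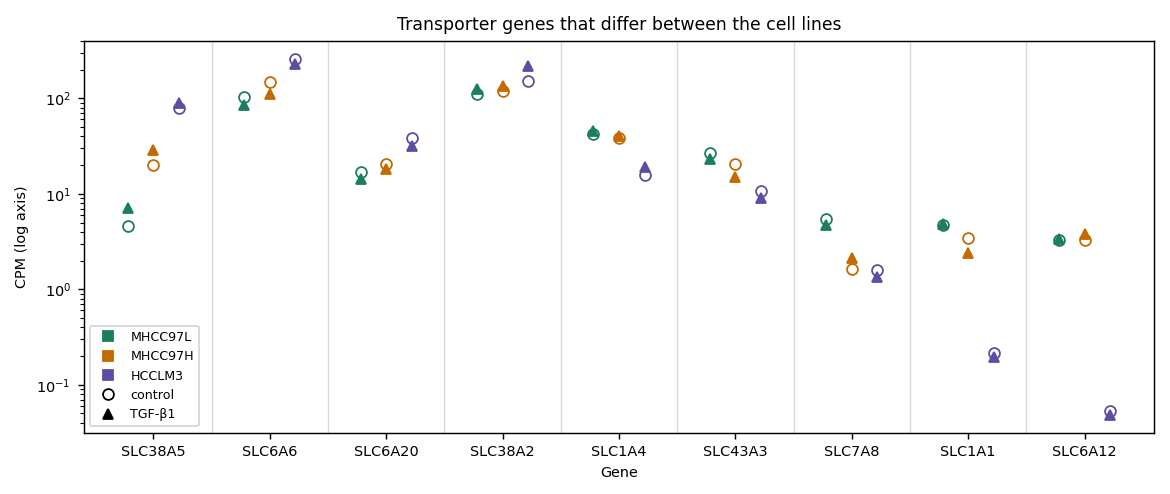
CPM (log axis) of 9 transporter genes that differ between the lines. Each point is 1 library, with open circles for control and filled triangles for TGF-β1, coloured by line. SLC38A5 climbs from MHCC97L to HCCLM3 with no overlap, and SLC1A1 and SLC6A12 are lowest in both HCCLM3 libraries.

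SLC38A5 differed between each pair of lines. Its line means were 5.86 CPM in MHCC97L, 24.3 in MHCC97H and 84.4 in HCCLM3. MHCC97H exceeded MHCC97L by 2.05 (log2, SE 0.134; adjusted p = 0.000482, edgeR), and HCCLM3 exceeded MHCC97L by 3.87 (SE 0.134; adjusted p = 4.88e-07) and MHCC97H by 1.81 (SE 0.117; adjusted p = 1.49e-05). SLC6A6 followed the same order, with line means of 94.3, 130 and 244 CPM. HCCLM3 exceeded MHCC97L by 1.38 (SE 0.084; adjusted p = 9.56e-06, edgeR) and MHCC97H by 0.92 (SE 0.083; adjusted p = 8.47e-05). MHCC97H exceeded MHCC97L by 0.45 (adjusted p = 0.0285), a call lost without the control of MHCC97L (0.492), the control of MHCC97H (0.128) or the TGF-β1 library of MHCC97L (0.347). SLC6A20 was at 15.7, 19.6 and 35 CPM, and HCCLM3 exceeded the others by 1.15 (adjusted p = 6.22e-05, edgeR) and 0.84 (adjusted p = 0.000385). SLC38A2 was at 117, 128 and 184 CPM, with differences of 0.64 (adjusted p = 0.00148, edgeR) and 0.51 (adjusted p = 0.00494). The first was at 0.0522 without the TGF-β1 library of MHCC97L.

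SLC6A12 and SLC1A1 were all but missing from HCCLM3. SLC6A12 had 3.26 and 3.33 CPM in MHCC97L and 3.29 and 3.78 CPM in MHCC97H, in control and TGF-β1 libraries, and 0.0531 and 0.0485 CPM in HCCLM3. These are 150 and 157 counts in the MHCC97 lines against 2 counts in HCCLM3, a ratio of 65.1 (95% counting interval 17.7 to 542) for MHCC97L and 70 (19.1 to 583) for MHCC97H. The adjusted p was 1.57e-05 against MHCC97L and 1.56e-05 against MHCC97H (edgeR). SLC1A1, a carrier of glutamate and cysteine, had 4.66 and 4.85 CPM in MHCC97L, 3.48 and 2.41 in MHCC97H, and 0.213 and 0.194 in HCCLM3. The ratio of MHCC97L to HCCLM3 was 23.4 (11.7 to 55) and that of MHCC97H to HCCLM3 was 14.4 (7.08 to 34), on 8 counts in HCCLM3. The adjusted p was 4.65e-05 and 0.000222 (edgeR).

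SLC1A4 was at 43.8, 39.5 and 17.5 CPM in MHCC97L, MHCC97H and HCCLM3, so that HCCLM3 differed by -1.32 (adjusted p = 2.97e-05, edgeR) and -1.18 (adjusted p = 6.74e-05). SLC43A3 was at 24.9, 17.8 and 9.87 CPM, with differences of -1.34 (adjusted p = 6.81e-05, edgeR) and -0.84 (adjusted p = 0.00105). SLC7A8, a carrier of neutral amino acids that pairs with SLC3A2, was highest in MHCC97L, at 5.4 and 4.71 CPM in control and TGF-β1 libraries. It stood at 1.62 and 2.11 CPM in MHCC97H and at 1.59 and 1.36 in HCCLM3. HCCLM3 differed from MHCC97L by -1.78 (adjusted p = 0.000671, edgeR). MHCC97H differed from MHCC97L by -1.43 (adjusted p = 0.0152), a call lost without the control of MHCC97L (0.184), the control of MHCC97H (0.0865) or the TGF-β1 library of MHCC97L (0.0524). SLC1A7 stood at 3.44 and 3.82 CPM in MHCC97L, 7.29 and 7.69 in MHCC97H and 4.3 and 2.91 in HCCLM3. MHCC97H exceeded MHCC97L by 1.05 (adjusted p = 0.0325, edgeR), and this call was lost without any 1 of the 4 libraries of these lines (0.0536 to 0.384). HCCLM3 differed from MHCC97H by -1.07 (adjusted p = 0.00485).

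Low genes among the calls were SLC6A16 and SLC1A2. SLC6A16 had 0.74 and 0.445 CPM in MHCC97L, 0.81 and 0.344 in MHCC97H and 1.91 and 2.57 in HCCLM3. HCCLM3 exceeded MHCC97L by 1.92 (adjusted p = 0.00831, edgeR; 0.0804 without the TGF-β1 library of MHCC97L). It exceeded MHCC97H by 1.99 (adjusted p = 0.0083), which became 1.40 (0.0916) without the TGF-β1 library of MHCC97H and 1.32 (0.052) without that of HCCLM3. SLC1A2 had 0.696 and 0.578 CPM in MHCC97L, 0.477 and 0.301 in MHCC97H and 1.49 and 1.07 in HCCLM3. HCCLM3 exceeded MHCC97H by 1.71 (adjusted p = 0.0144, edgeR), lost without either library of MHCC97H (0.0733 and 0.0923) or the control of HCCLM3 (0.0519).

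The remaining calls were small or were lost in fits without a single library. For SLC7A9 the difference of HCCLM3 was -1.15 from MHCC97L (adjusted p = 0.0109, edgeR) and -1.20 from MHCC97H (adjusted p = 0.00974). Without the TGF-β1 library of HCCLM3 these were at 0.0829 and 0.074, and without that of MHCC97L the first was at 0.143. SLC38A10 (-0.34 and -0.37), SLC7A11 (-0.33 against MHCC97L), SLC6A8 (0.27 against MHCC97L), SLC43A2 (0.40 against MHCC97L), SLC38A1 (0.32 against MHCC97H) and SLC7A7 (-0.33 against MHCC97H) had adjusted p-values between 0.013 and 0.0465 in edgeR. Each of these 6 lost its call when either library of MHCC97L, the control or the TGF-β1 library, was left out. Those libraries are not among the ones compared for HCCLM3 against MHCC97H. There the differences with either of them left out were -0.37 for SLC38A10, 0.31 for SLC38A1 and -0.34 for SLC7A7. SLC1A5 was not called between any lines, and SLC7A5 was not called in the full fits, with MHCC97H at -0.25 against MHCC97L (adjusted p = 0.203, edgeR). That value was at 0.0467 and 0.0238 without the control or the TGF-β1 library of HCCLM3.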

How the data were processed

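Each library's file, as deposited, lists Ensembl gene IDs with an expected count. The unit is read from the values: 63.6% to 64.6% of a library's values were whole and the rest had decimals. Tools named in the submitters' processing notes are Cufflinks 2.2.1, TopHat2 2.1.1 and Cuffdiff 1.3.0, with the build hg38. The counting tool and its strand setting are not given in the sources used here. Counts split between similar or overlapping genes can shift a gene's level, and 35 of the 57 members had whole counts in all libraries.

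Symbols were taken from a table of gene names or from GENCODE 29, which matched 19574 of 22091 IDs. The other 2517, with 2.01% of the counts, stayed in the tests. Counts were rounded, filtered with filterByExpr on treatment and scaled by TMM (factors 0.972 to 1.03). The median change of all genes was -0.00286 with TMM and -0.053 with library totals. edgeR 4.0.16 in R 4.3.3 fitted cell line and treatment (robust quasi-likelihood, 2 residual degrees of freedom), with Benjamini-Hochberg adjustment at 0.05 over 14176 genes. The pairing comes from the labels, which name the line of each library. It was checked by the correlation across genes of the deviations of a line's libraries from their condition means, which was 0.587, 0.456 and 0.728. Within a line, changes are log2 CPM with a prior count of 2, and intervals are 95% exact conditional binomial intervals, which cover counting error only. Alternatives used DESeq2 1.42.0, limma 3.58.1, other scalings and filters, and fits without single lines or libraries. Promoters came from RefSeq.

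Members with a mean of 1 CPM are named. Values in every library are given for members called after TGF-β1, the 10 highest per kb, and the 5 largest called differences of each line comparison. SLC3A1 and SLC3A2 are named in any case, as are up to 4 called genes of each list, by smallest p. A few genes are not reported here. ATF4 and ASNS, SLC7A14, SLC38A7 and SLC38A11 were named after their values were seen. The members and lists were chosen with earlier results of these data known.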

Additional observations from a re-analysis of the deposited data

How the results depend on the processing

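The main limit is 1 library per line and condition. Paired by line, 7 members were called after TGF-β1, and with no replicate block none was. Without 1 line, 1 to 10 were called. MHCC97H against MHCC97L gave 4 calls, 2 with DESeq2, 0 with no treatment term and 1 to 8 without single libraries. HCCLM3 against MHCC97L gave 15, and 8 to 16 without single libraries. HCCLM3 against MHCC97H gave 15, 9 with no treatment term and 11 to 17 without single libraries. The share of all genes called for MHCC97H against MHCC97L was 2.45%, 2.3% with DESeq2 and 0.0141% with no treatment term. For HCCLM3 against MHCC97H it was 27.2%, and 10.2% with no treatment term. Without single libraries, the share of all genes moved in the same direction as the count of members in most fits. The shifts in those fits and with no treatment term are therefore not particular to the transporters. At 2-fold, no member was past the limit in MHCC97L or HCCLM3 alone. With 5 CPM asked for, 1 was past 1.5-fold in MHCC97H and 1 in HCCLM3. The TGF-β1 change of SLC7A1 (-0.02) ran from -0.09 to 0.03 without single lines, above 0 without MHCC97L (0.03) or MHCC97H (0.01). The difference of SLC7A5 between HCCLM3 and MHCC97L (-0.02) ran from -0.14 to 0.09 without single libraries, above 0 without the control of MHCC97L (0.09) or HCCLM3 (0.03). None of these 4 values or their full fits passed the threshold. The cause of these shifts was not tested beyond the smaller number of libraries. Other scalings, filters, rounding and tests left each other count within 1.5 times its value. Depth limits members under 1 CPM most, and 22 of the 57 were not tested.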

Other observations

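The genes within 500 kb of SLC1A1, SLC6A12, SLC6A20, SLC6A6 and SLC38A5 were looked at. These members were picked after their differences between lines were seen, and not by rank. Members with differences as large, such as SLC6A16, were not looked at in this way. No test was made of the pattern. Around SLC1A1, none of the 6 tested neighbours was called in HCCLM3 against either line, and their log2 differences ran from -0.39 to 0.13. Of all genes, 29.8% were called against MHCC97L and 27.2% against MHCC97H. Around SLC6A12, KDM5A differed by 0.01 and 0.04 from MHCC97L and MHCC97H, NINJ2 by 0.80 and 0.42, and IQSEC3 by -1.82 and -1.91 (adjusted p = 0.0757 and 0.0664, edgeR). SLC6A13, a GABA and taurine carrier, had 9 counts in each of MHCC97L and MHCC97H and 2 in HCCLM3, a ratio of 3.91 (95% counting interval 0.808 to 37.1) for MHCC97L.

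Of all genes, 15% were called higher and 14.8% lower in HCCLM3 than in MHCC97L, and 13.3% and 13.9% than in MHCC97H. Around SLC6A20, all 7 tested neighbours were higher in HCCLM3 than in both other lines, 5 of them called against MHCC97L and 4 against MHCC97H. LIMD1 differed by 0.52 and 0.44 and FYCO1 by 0.72 and 0.66. Around SLC6A6, 2 of 7 neighbours were called higher and 5 lower in HCCLM3 in both comparisons. GRIP2, whose exons overlap those of SLC6A6 on the other strand, differed by -2.15 and -2.07, opposite in sign to SLC6A6. Around SLC38A5, 4 of 19 neighbours were called higher against each line, with SSX1, a cancer-testis gene, 5.18 above MHCC97H, and 2 and 1 were called lower.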
